A study of Mus musculus with 8 samples.

Results

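The 10 genes described here are the immediate early genes Fos, Fosb, Jun, Junb, Egr1, Ier2, Atf3, Dusp1, Klf4 and Klf6, found by symbol among the 41709 symbols of the table. They were chosen by name as genes that growth factors, or the handling of tissue, induce within minutes. RNA was sequenced from whole mouse embryos of embryonic day 9.5, each embryo a sample of its own. The 4 wild types (WT) were Smo+/+ and the 4 mutants were homozygous for Smo K399A, a substitution in Smoothened, the membrane protein that passes on the Hedgehog signal. All came from crosses between SmoK399A/+ parents over several litters, without a record in the labels of the litter of each embryo. The allele is present in every cell of the mutants, so no tissue was targeted. Embryos were dissected and flash frozen singly, and kept frozen while they were genotyped. The labels give no time from dissection to freezing.

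Immediate early genes are transcribed without new protein synthesis once kinases of the ERK, JNK and p38 cascades, or calcium and cAMP, activate factors that already sit at their promoters, such as SRF with its Elk partners and CREB or ATF proteins. Their transcripts are short-lived, so a level reflects recent signalling. Fos, Fosb, Jun and Junb encode subunits of the AP-1 transcription factor. Egr1, Klf4 and Klf6 encode zinc finger transcription factors, Atf3 a stress-induced factor of the ATF/CREB family, Ier2 a small nuclear protein, and Dusp1 a phosphatase that switches MAP kinases off. In whole embryos such transcripts also mark places of continuing signalling, and Klf4 and Klf6 are also known from endothelium and epithelia.

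For 8 of the 10 genes the 250 bases before each start were read from the RefSeq table of promoters (GRCm38.p6). Egr1, whose groups did not overlap either, and Ier2 were left out of this search. The sequences below are those of Atf3, Klf4 and Klf6, whose groups did not overlap, of Fos and Junb, which varied together between embryos, and of Dusp1, which did neither. Capitals mark TGACG, the core that CREB and ATF proteins recognise, on either strand.
Fos (chr12:85473640-85473889, plus strand): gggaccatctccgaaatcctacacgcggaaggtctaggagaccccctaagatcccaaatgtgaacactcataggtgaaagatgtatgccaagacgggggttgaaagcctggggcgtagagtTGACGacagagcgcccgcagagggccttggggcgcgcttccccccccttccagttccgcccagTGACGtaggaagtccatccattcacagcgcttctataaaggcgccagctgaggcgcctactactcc
Junb (chr8:84978749-84978998, minus strand): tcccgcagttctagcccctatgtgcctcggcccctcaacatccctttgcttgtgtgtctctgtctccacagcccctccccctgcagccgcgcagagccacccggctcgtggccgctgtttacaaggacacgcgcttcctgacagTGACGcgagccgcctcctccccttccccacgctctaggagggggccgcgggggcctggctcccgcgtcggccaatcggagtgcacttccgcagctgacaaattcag
Atf3 (chr1:191183334-191183583, minus strand): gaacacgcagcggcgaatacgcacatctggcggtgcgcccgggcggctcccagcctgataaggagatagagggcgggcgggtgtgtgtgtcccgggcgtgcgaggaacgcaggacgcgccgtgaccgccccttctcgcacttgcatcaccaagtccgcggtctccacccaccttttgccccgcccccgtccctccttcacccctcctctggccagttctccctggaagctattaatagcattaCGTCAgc
Klf4 (chr4:55532476-55532725, minus strand): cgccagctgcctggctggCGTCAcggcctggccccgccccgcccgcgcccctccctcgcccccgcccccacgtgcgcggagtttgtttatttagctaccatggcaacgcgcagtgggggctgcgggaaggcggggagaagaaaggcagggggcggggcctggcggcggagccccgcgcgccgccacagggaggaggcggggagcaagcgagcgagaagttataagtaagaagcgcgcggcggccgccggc
Klf6 (chr13:5861239-5861488, plus strand): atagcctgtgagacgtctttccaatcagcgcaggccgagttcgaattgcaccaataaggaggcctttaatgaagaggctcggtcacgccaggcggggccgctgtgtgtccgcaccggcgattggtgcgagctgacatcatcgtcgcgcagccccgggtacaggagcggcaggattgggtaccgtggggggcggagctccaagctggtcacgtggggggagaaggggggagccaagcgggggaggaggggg
Dusp1 (chr17:26508473-26508722, minus strand): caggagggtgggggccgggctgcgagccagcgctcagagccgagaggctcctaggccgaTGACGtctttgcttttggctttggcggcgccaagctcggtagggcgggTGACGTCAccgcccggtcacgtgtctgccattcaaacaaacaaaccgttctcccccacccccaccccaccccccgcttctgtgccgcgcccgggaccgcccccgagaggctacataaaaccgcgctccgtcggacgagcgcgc
Each is printed 5′ to 3′ along its gene. Searched on both strands were TGACG, the full site TGACGTCA that contains it, TGANTCA (the AP-1 site), TATAAA and the CArG box bound by SRF, a choice made after the sequences had been seen. TGACG was found in 6 of the 8 promoters (Fos, Fosb, Junb, Atf3, Dusp1 and Klf4), against 17.77% of all 32851 promoters of the same length. In Fos it began 129 and 66 bases before the start, in Atf3 7, in Klf4 232 and in Junb 106 bases before. Dusp1 held TGACGTCA at 143 bases before the start, a site in 1.55% of all promoters. TATAAA was found in Fos, 33 bases before the start (12.37% of all promoters). The CArG box (1.47% of all) and TGANTCA (6.75% of all) were in none of the 8 windows. Bases further from the start, and the promoters of Egr1 and Ier2, were not searched, so such sites may lie there. Within the windows, sites that depart from these letters were not counted either. Matches are a description of the letters only. Atf3 and Dusp1 lie within longer gene models in GENCODE M21, so other starts exist.

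Levels are given in TPM, reads per gene length scaled to the same total in every library, and can therefore be set side by side between genes. By median over the 8 embryos the order was Ier2 at 145 TPM, Jun at 45.5, Klf6 at 31.1, Dusp1 at 12.4, Atf3 at 8.24, Junb at 7.11, Klf4 at 2.13, Egr1 at 2.13, Fos at 1.31 and Fosb at 0.0850 TPM. The ranges of Jun and Klf6 overlapped, as did those of Atf3 and Junb and those of Klf4, Egr1 and Fos. Fos and Egr1, the genes used most often as a readout of acute stimulation, were thus near the bottom of the list, and Ier2 and Jun at the top. Recovered reads ranged from 57.7 to 59.1 M per library (M, mega). Fosb rested on 2 to 17 reads per embryo, Fos on 37 to 90, Klf4 on 105 to 204, Egr1 on 148 to 232, and Jun and Klf6 on 2332 or more. Fosb stayed under 1 TPM everywhere and was not tested, so 9 of the 10 genes were tested.

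Mutant was compared with WT to ask whether the transcripts of acute signalling differ when Smoothened carries the substitution. The test was limma on log2(TPM + 1), with p adjusted by Benjamini-Hochberg over all 13596 genes that reached 1 TPM in at least 4 embryos. None of the 9 genes passed at an adjusted p under 0.05, and across the table limma called 0 genes (0%). At an unadjusted p under 0.05, 2 of the 9 (Klf4 and Atf3) were reached, both higher in mutants, where the share over all genes was 13.5%, and 5.55% for higher alone. Limma voom on recovered reads also called 0 genes and gave 2 of its 8 tested members at an unadjusted p under 0.05, against 15.7% of all genes in that fit. Of the 9 genes, 7 had a higher mean in mutants, against 37.7% of all tested genes. That share depends on the scaling: with median-ratio scaling it was 47.9% of all genes, and again 7 of the 9. In 4 of the 9 (Klf4, Klf6, Atf3 and Egr1) every mutant lay above every WT embryo. Over all genes the groups did not overlap in 7.46%, with mutants on top in 3.63% and below in 3.82%. The median log2 fold change was 0.20 over the 9 genes and -0.04 over all tested genes. It was 0.15 without mutants 3 and 4, a setting chosen with earlier results known, where 7 of 9 had a higher mean and 3 (Klf4, Fos and Klf6, all higher) reached an unadjusted p under 0.05. In that fit 58.7% of all genes had a higher mean, 9.93% were higher at that p, and the median of all genes was 0.03. The labels number the embryos and name no batch, and the embryos are separate animals.

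**Figure D1:**
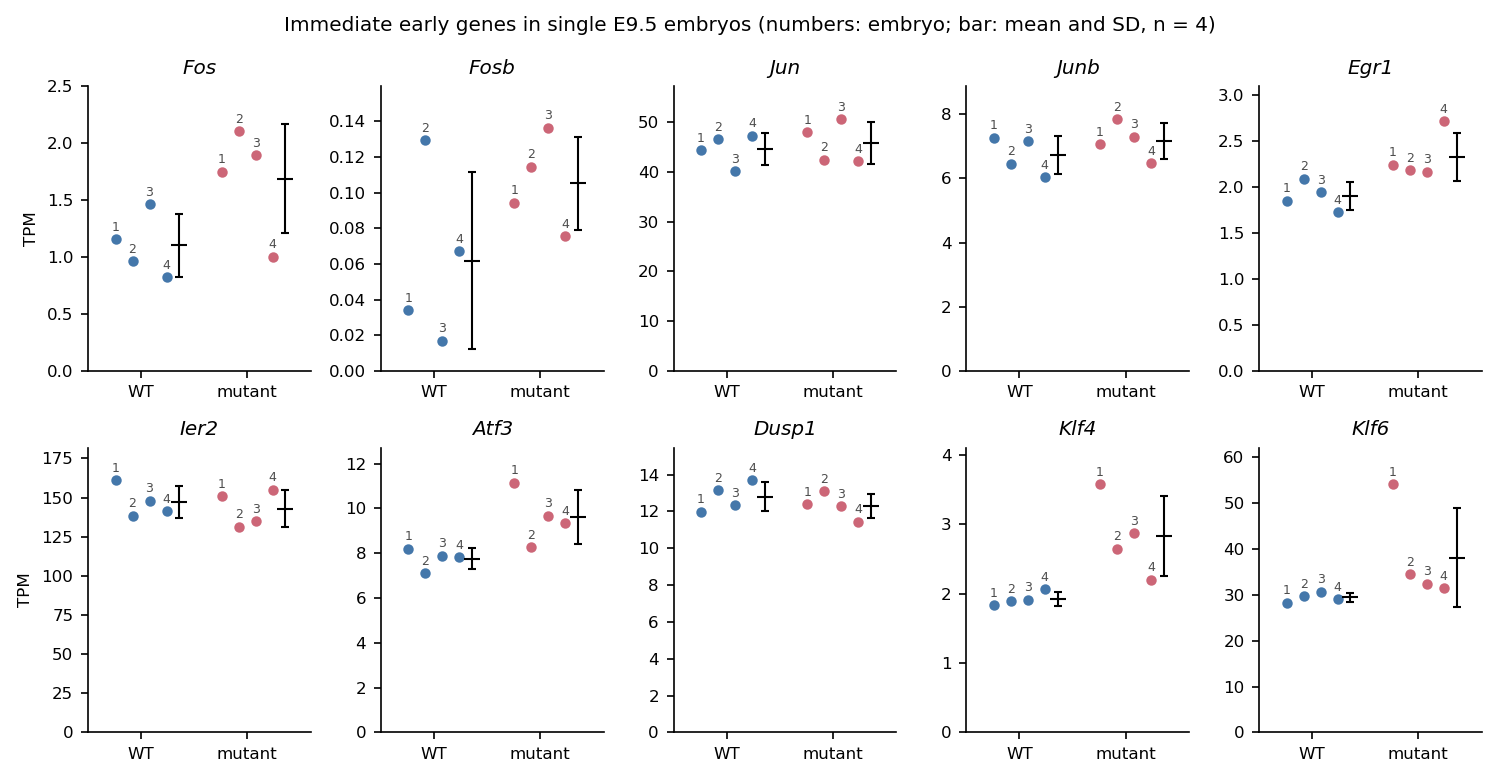
TPM of the 10 immediate early genes in each embryo (numbers 1 to 4), WT in blue and mutants in red, with the mean and SD of each group in black (n = 4); each panel has its own axis from 0. Mutants lie above WT without overlap in Klf4, Klf6, Atf3 and Egr1, and the groups overlap in the other 6.

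Klf4 had the largest estimate of the 9 genes on the log2(TPM + 1) scale, whereas Fos was ahead of it by ratio of means, with a pseudocount of 0.1 and with voom. It was at 1.83, 1.89, 1.92 and 2.06 TPM in WT 1 to 4, and at 3.58, 2.65, 2.88 and 2.20 TPM in mutants 1 to 4. The WT embryos lay close together and the mutants were spread out above them, with mutant 1 at the top and mutant 4 nearest to WT. The means were 1.93 ± 0.0972 TPM (SD, n = 4) and 2.83 ± 0.574 TPM, a ratio of 1.47. The log2 fold change of TPM + 1 was 0.38 ± 0.12 (SE; adjusted p = 0.301 by limma), with a 95% confidence interval from 0.10 to 0.65. At about 110 reads in a WT library, counting error alone gives a CV of 9.51%, and the WT embryos differed by a CV of 5.05%. In mutants the CV between embryos was 20.3%, against 7.82% from counting. TPM + 1 draws such low values together, and with a pseudocount of 0.1 the log2 fold change was 0.51.

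Klf6 was far more abundant and its difference rested in large part on a single embryo. WT 1 to 4 were at 28.3, 29.8, 30.7 and 29.0 TPM, and mutants 1 to 4 at 54.2, 34.6, 32.5 and 31.4 TPM. Mutant 1 stood well apart from the other mutants, which lay only just above the WT range. The means were 29.5 ± 1.05 TPM (SD, n = 4) and 38.2 ± 10.7 TPM, and the log2 fold change was 0.33 ± 0.15 (SE; adjusted p = 0.379 by limma; interval -0.01 to 0.67). It was 0.15 without mutant 1 and 0.54 without mutants 3 and 4. Its spread within groups, an SD of 0.26 on the log2 scale, was larger than that of 91.6% of the 500 tested genes nearest to it in level. The WT embryos differed by a CV of only 3.56%.

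Atf3 was at 8.21, 7.10, 7.89 and 7.83 TPM in WT 1 to 4 and at 11.2, 8.27, 9.68 and 9.34 TPM in mutants 1 to 4. The groups were separated by a narrow gap, between WT 1 and mutant 2, and mutant 1 was again highest. The log2 fold change was 0.27 ± 0.10 (SE; adjusted p = 0.324 by limma; interval 0.04 to 0.50). Leaving out any single embryo kept it between 0.20 and 0.33.

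Egr1 was at 1.85, 2.09, 1.94 and 1.73 TPM in WT 1 to 4 and at 2.24, 2.18, 2.17 and 2.72 TPM in mutants 1 to 4. Here mutant 4, the lowest mutant in Klf4 and Klf6, was the highest, and the other 3 mutants lay just above WT 2. The log2 fold change was 0.20 ± 0.10 (SE; adjusted p = 0.412 by limma; interval -0.04 to 0.43). The CV between WT embryos, 7.97%, was about that of counting error, 7.89%, and only 2.80% of the 500 genes nearest in level had a smaller spread within groups.

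Of the 3 AP-1 subunits tested among the 10 genes, Fos had the largest estimate. Fos was at 1.15, 0.962, 1.47 and 0.824 TPM in WT 1 to 4 and at 1.75, 2.10, 1.90 and 1.00 TPM in mutants 1 to 4. Mutants 1 to 3 lay above all WT embryos, and mutant 4 lay within the WT range. The means were 1.10 ± 0.279 TPM (SD, n = 4) and 1.69 ± 0.479 TPM, a ratio of 1.53, with a log2 fold change of 0.35 ± 0.16 (SE; adjusted p = 0.384 by limma; interval -0.02 to 0.71). On recovered reads, without the pseudocount, voom gave 0.59, and with a pseudocount of 0.1 it was 0.56.

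Fosb, which stimulated tissues transcribe together with Fos, was at 0.0341, 0.129, 0.0170 and 0.0671 TPM in WT 1 to 4, that is 4, 15, 2 and 8 reads. In mutants 1 to 4 it was at 0.0943, 0.114, 0.136 and 0.0757 TPM, from 11, 13, 17 and 9 reads. The groups overlapped. The CV between WT embryos was 80.1%, against 37.1% from counting error alone, and no difference was tested.

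Jun, by contrast, was abundant and differed little. It was at 44.4, 46.5, 40.1 and 47.3 TPM in WT 1 to 4 and at 48.0, 42.5, 50.6 and 42.2 TPM in mutants 1 to 4, with the groups fully interleaved. Its log2 fold change was 0.04 (adjusted p = 0.836 by limma; interval -0.14 to 0.21), and the sign turned without WT 3 or without mutant 3. Junb was at 7.27, 6.46, 7.15 and 6.03 TPM in WT 1 to 4 and at 7.07, 7.84, 7.30 and 6.48 TPM in mutants 1 to 4. Its log2 fold change was 0.08 (adjusted p = 0.696 by limma; interval -0.13 to 0.30). The Junb gene overlaps Prdx2 on the opposite strand, at up to 694 TPM, and the library kit does not keep strand, so some Junb reads may belong to Prdx2.

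Ier2 and Dusp1 were the 2 genes with a lower mean in mutants, and both by little. Ier2 was at 161, 138, 148 and 141 TPM in WT 1 to 4 and at 151, 131, 135 and 155 TPM in mutants 1 to 4. Its log2 fold change was -0.04 (adjusted p = 0.789 by limma; interval -0.20 to 0.12). Dusp1 was at 12.0, 13.2, 12.3 and 13.7 TPM in WT 1 to 4 and at 12.4, 13.1, 12.3 and 11.5 TPM in mutants 1 to 4. Its log2 fold change was -0.05 (adjusted p = 0.763 by limma; interval -0.23 to 0.12). Dusp1 shares its span with Ergic1 on the opposite strand, at up to 84.2 TPM. For Jun, Ier2 and Dusp1 the intervals leave room for changes of no more than 0.23 on the log2 scale in either direction.

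**Figure D2:**
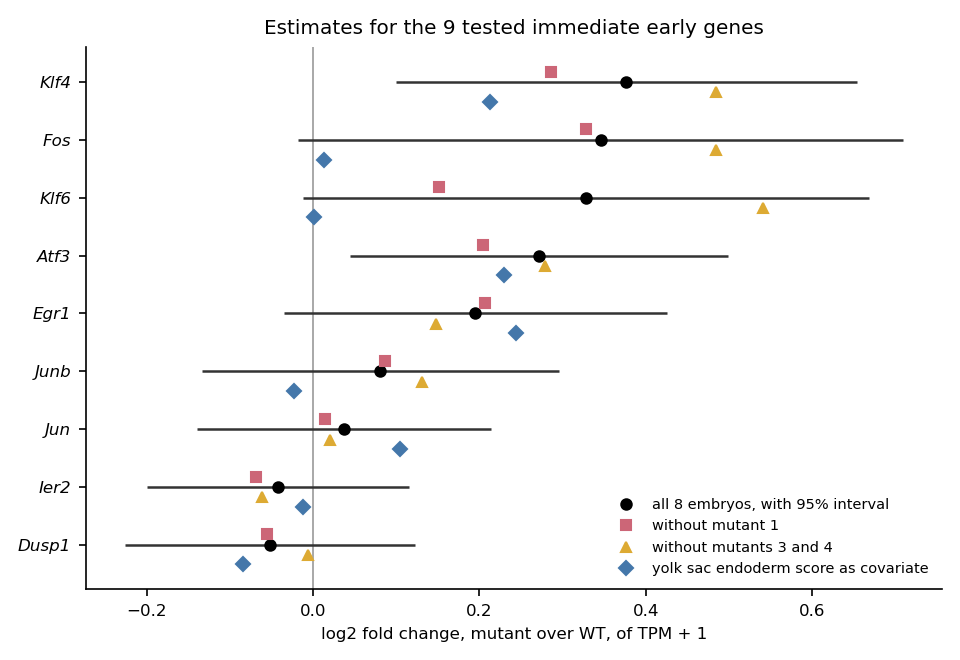
Log2 fold change of TPM + 1, mutant over WT, for the 9 tested genes with all 8 embryos (black, with the 95% confidence interval), without mutant 1 (red squares), without mutants 3 and 4 (yellow triangles) and with the yolk sac endoderm score as a covariate (blue diamonds). The intervals of Klf4 and Atf3 lie above 0; Klf6 falls from 0.33 to 0.15 without mutant 1, and Fos and Klf6 lie near 0 with the covariate.

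Several lists of markers of other tissues also differed in mean between the genotypes, and 0 of the tested markers passed the test. The share of all tested genes with a higher mean in mutants was 37.7%. All 13 tested markers of yolk sac endoderm had a higher mean in mutants, and the summed level of the 14 listed ranged from 19.6 to 270 TPM in WT and from 158 to 1410 TPM in mutants. Mutant 1, highest in Klf4, Klf6 and Atf3, also had the highest sum, 1410 TPM. Among WT embryos the sum was highest in WT 3, at 270 TPM, which also had the highest Fos and Klf6, whereas Klf4 was highest in WT 4 and Atf3 in WT 1. No yolk sac marker was at 0 in any library. With the mean of these markers as a covariate, a setting chosen with earlier results known, the log2 fold change was 0.014 for Fos, 0.00095 for Klf6, -0.023 for Junb, 0.21 for Klf4, 0.23 for Atf3 and 0.24 for Egr1. The median over the 9 genes was then 0.014, against -0.11 over all tested genes. An estimate above 0 was seen in 6 of 9, against 29.6% of all tested genes. In that fit 0 of 9 reached an unadjusted p under 0.05, where 16.6% of all genes did. Since the score was itself higher in mutants, the covariate also takes up part of any difference between genotypes.

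Endothelial markers had a higher mean in mutants in 8 of 8, with sums of 158 to 185 TPM in WT and 189 to 248 TPM in mutants, highest in mutant 1. Heart muscle markers had a higher mean in 7 of 8, at 1193 to 1726 TPM in WT and 1825 to 3713 TPM in mutants, again highest in mutant 1. Trophoblast and decidua markers had a higher mean in 5 of 5 tested, at 19.4 to 39.6 TPM in WT and 28.7 to 341 TPM in mutants, the top value in mutant 2. Of that list Prl7d1, Tpbpa, Ctsq and Gcm1 were at 0 in some libraries. Neural markers had a lower mean in mutants in 8 of 8 (510 to 756 TPM in WT, 348 to 578 TPM in mutants). Macrophage markers, of cells that transcribe immediate early genes when disturbed, summed to 5.41 to 7.68 TPM in WT and 3.27 to 8.38 TPM in mutants. Only 2 of the 7 listed reached the level to be tested, 1 with a higher and 1 with a lower mean in mutants. Primitive red cell markers overlapped widely, at 17304 to 59278 and 24574 to 63062 TPM. In whole embryos fewer cells of a type and less RNA per cell cannot be told apart. The part of these tissues in the values of the immediate early genes, beyond the covariate fit for the yolk sac, was not tested.

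**Figure D3:**
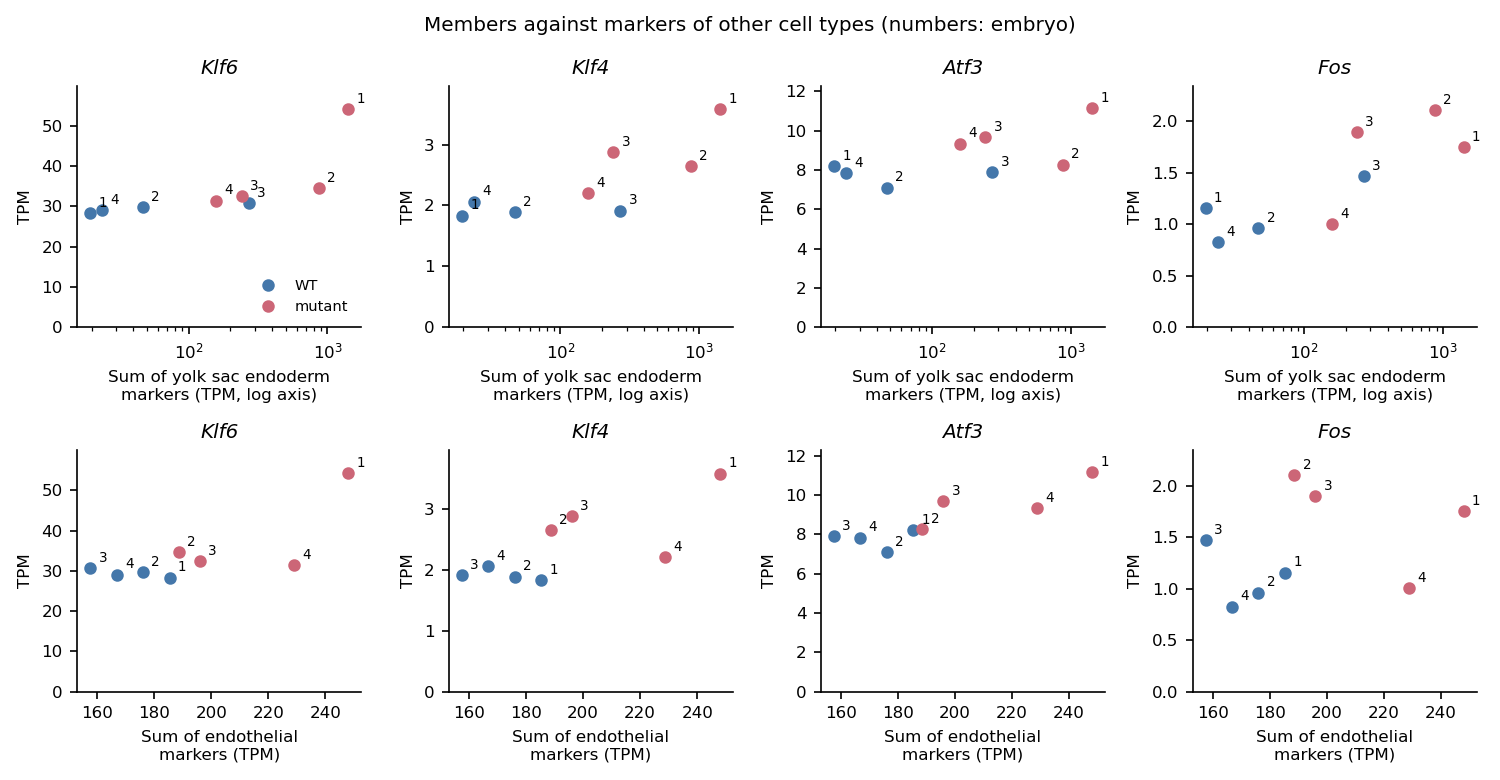
Klf6, Klf4, Atf3 and Fos (TPM) in each embryo against the summed TPM of 14 yolk sac endoderm markers (top row, log axis) and of 8 endothelial markers (bottom row), WT in blue and mutants in red. Mutant 1 is at the top of both marker sums and of Klf6, Klf4 and Atf3, and Fos is highest in mutant 2.

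The small nucleolar RNA host genes, listed as a possible sign of RNA handling, had a lower mean in mutants in 9 of 9. Of these 4 reached an unadjusted p under 0.05, 3 were without overlap, and 0 passed the test. Among all 13596 tested genes 37.7% had a higher mean, 1088 were lower at that p, and 3.82% lay below WT without overlap. Snhg9 was at 10.6 to 15.1 TPM in WT and 5.16 to 8.19 TPM in mutants, Epb41l4aos at 112 to 133 and 67.7 to 94.4 TPM, and Snhg8 at 89.6 to 93.1 and 54.4 to 88.4 TPM. The sum over the list was lowest in mutants 3 and 4, at 396 and 374 TPM, and was 699 and 835 TPM in mutants 1 and 2 and 745 to 892 TPM in WT. Whether these levels reflect RNA handling in these embryos was not tested. Nor was the part of RNA handling in the values of the immediate early genes. Mutants 3 and 4 had no common place among the immediate early genes. Mutant 3 had the highest Jun, and mutant 4 the highest Egr1 and the lowest Fos, Jun, Junb, Klf4 and Klf6 of the mutants. Without them the log2 fold change was 0.48 for Fos, 0.48 for Klf4, 0.28 for Atf3 and 0.15 for Egr1.

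The immediate early genes did not go up and down together between embryos of a genotype. With each gene centred within its genotype, 18 of the 36 pairs of tested genes had a positive Pearson correlation over the 8 embryos, and the median was 0.01. These correlations share libraries and depth and are given as a description. The closest pairs were Fos with Junb (0.89) and Klf4 with Klf6 (0.85), the 2 pairs above 0.7. Atf3 correlated at 0.65 with Klf6 and at 0.62 with Klf4. Mutant 1 decided most of these values: without it the correlation was 0.39 for Klf4 with Klf6, -0.65 for Atf3 with Klf6, -0.01 for Atf3 with Klf4 and 0.90 for Fos with Junb. Egr1 had a negative correlation with 7 of the other 8 genes, down to -0.62 with Klf4, and the lowest value of all was -0.82, between Ier2 and Dusp1. Among the mutants, mutant 4 was highest in Egr1 and lowest in Fos, Jun, Junb, Dusp1, Klf4 and Klf6. The correlations without mutant 4 were not computed. In WT the CV was 7.97% against 7.89% from counting error for Egr1, and 5.05% against 9.51% for Klf4, so counting error enters these values. Fos and Egr1, which a common stimulus is known to induce side by side, correlated at -0.58. For WT 1 to 4 the mean of log2(TPM + 1) over the 9 genes came to 3.53, 3.50, 3.54 and 3.49, and for mutants 1 to 4 to 3.82, 3.67, 3.69 and 3.58. Of 12766 other named genes, the 5 most like that mean after centring were Ntf5, Rnh1, C1galt1c1, Ndufb3 and Mtif3, with correlations from 0.97 to 0.98 over the 8 embryos and from 0.89 to 0.94 without mutant 1. Picking the top of so many genes over 8 embryos gives high values by itself, and the values without mutant 1 are of genes picked with it. All of the 5 but C1galt1c1 had a lower mean in mutants.

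**Figure D4:**
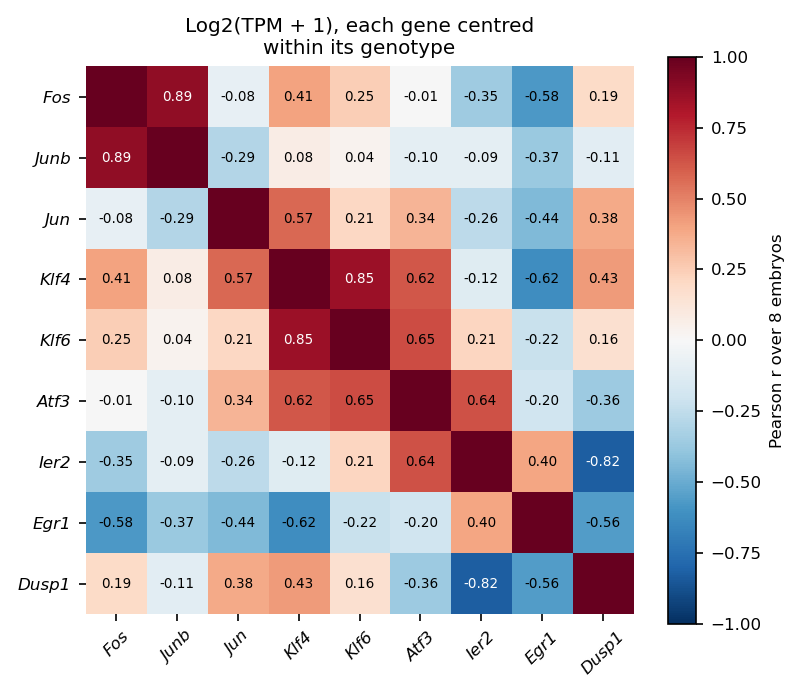
Pearson correlations over the 8 embryos between the 9 tested genes, on log2(TPM + 1) centred within each genotype, from -1 (blue) to 1 (red). Red blocks join Fos with Junb, and Klf4 with Klf6 and Atf3, of which the second rests on mutant 1, and the row of Egr1 is mostly blue.

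A further 30 immediate early genes were listed, of which 27 were tested, and limma called 0 of them. Here 18 had a higher and 9 a lower mean in mutants, against 37.7% of all tested genes with a higher mean. The median log2 fold change was 0.06. An unadjusted p under 0.05 was reached by 3 higher and 1 lower, where 13.5% of all tested genes reached it in either direction. The lower gene was Btg2, an inhibitor of proliferation that also marks neural precursors in neurogenic divisions. It was at 40.4, 45.9, 41.6 and 41.3 TPM in WT 1 to 4 and at 22.8, 38.3, 30.7 and 27.2 TPM in mutants 1 to 4 (log2 fold change -0.52 ± 0.13, SE; adjusted p = 0.281 by limma). It was the single gene of the 27 whose groups did not overlap, against 7.46% of all tested genes. Fosl2, another AP-1 subunit, was at 1.99 to 2.23 TPM in WT and at 3.80, 3.03, 3.17 and 2.09 TPM in mutants 1 to 4, the order of mutants seen in Klf4 (adjusted p = 0.321 by limma). Egr2, which also patterns hindbrain rhombomeres, ranged from 0.170 to 1.84 TPM in WT and from 0.826 to 3.34 TPM in mutants. Dusp2, a nuclear MAP kinase phosphatase, was at 4.97 to 7.02 and 6.58 to 8.20 TPM. Klf2, which blood flow induces in endothelium, was at 6.21 to 7.81 and 6.54 to 10.5 TPM, and Ier5 at 23.2 to 24.8 and 18.6 to 24.4 TPM.

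The transcripts of the machinery above these genes differed little by median, and the activity of its proteins was not measured. Of SRF and its cofactors 3 of 6 had a higher mean in mutants, by a median log2 fold change of 0.03, and 0 passed the test or an unadjusted p under 0.05. Srf itself was at 69.0 to 76.8 TPM in WT and 71.1 to 87.5 TPM in mutants, Elk3 at 19.7 to 26.3 and 24.1 to 27.6 TPM, and Elk1 at 16.8 to 18.6 and 14.7 to 18.6 TPM. Of 16 genes of the Ras, ERK and stress kinase cascades 12 had a higher mean (median 0.04), against 37.7% of all tested genes (median -0.04). Of the 16, 0 passed, with 1 in each direction at an unadjusted p under 0.05. The higher was Mapk14, the p38 kinase, at 87.9 to 95.9 and 96.5 to 105 TPM. Rps6ka3, a kinase that ERK activates, was at 56.3 to 65.3 and 61.9 to 69.6 TPM.

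Genes downstream of steady FGF and ERK signalling had a median log2 fold change of 0.01, against -0.04 over all tested genes, with 0 past the test. A higher mean was seen in 7 of 11, against 37.7% of all tested genes, of which 7.46% were without overlap in either direction. Dusp6, the ERK phosphatase that FGF signalling induces, was at 104 to 119 TPM in WT and at 96.3 to 99.8 TPM in mutants, without overlap (log2 fold change -0.17; adjusted p = 0.284 by limma). Spred1, an inhibitor of Ras signalling, went the other way, at 46.0 to 51.2 and 51.3 to 60.0 TPM, also without overlap (adjusted p = 0.313). Etv4, an ETS factor of FGF signalling, was at 22.0 to 28.6 and 17.4 to 29.1 TPM.

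The cytoskeletal targets of SRF had a higher mean in mutants in 11 of 12, with a median log2 fold change of 0.15 and 0 past the test. Of all tested genes, 37.7% had a higher mean and 3.63% lay above WT without overlap. Vcl, the focal adhesion protein vinculin, was at 41.9 to 45.4 TPM in WT and at 60.8, 49.5, 52.0 and 58.1 TPM in mutants 1 to 4 (log2 fold change 0.30 ± 0.07, SE; adjusted p = 0.281 by limma). Acta2, the smooth muscle actin that early heart muscle also makes, was at 235 to 290 TPM in WT and at 693, 309, 458 and 400 TPM in mutants 1 to 4. Both were without overlap and highest in mutant 1, the embryo with the highest heart marker sum, and the part of heart tissue in them was not tested. Flna, which crosslinks actin, was at 275 to 304 and 296 to 348 TPM.

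Heat shock genes, which handling can induce as well, had a higher mean in 9 of 10 tested, against 37.7% of all tested genes. Their median log2 fold change was 0.11, with 0 past the test. Bag3, a cochaperone abundant in muscle, was at 30.6 to 33.5 TPM in WT and at 40.0, 36.3, 43.8 and 47.4 TPM in mutants 1 to 4, without overlap (log2 fold change 0.37 ± 0.08, SE; adjusted p = 0.281 by limma). Hspb1, a small heat shock protein also made in heart, was at 44.1 to 68.8 and 55.5 to 122 TPM, and Hspa8, the constitutive chaperone, at 3088 to 3335 and 3218 to 3703 TPM. Hspa1a, a classical inducible gene, was at 0.556 to 1.11 TPM in WT and at 0.726 to 2.36 TPM in mutants. Its top value was in mutant 3, and it was too low to be tested. Hspa1b of the same list was tested, at 3.71 to 4.90 and 4.04 to 6.08 TPM (log2 fold change 0.13; adjusted p = 0.640 by limma).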

How the data were processed

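RNA of 8 whole embryos, 4 WT and 4 mutants, was analysed from the single table that the authors deposited, which gives TPM per gene symbol with 1 column per embryo (all 8 matched by name, 0 left over). The genome build is GRCm38 (mm10), per the submitters' processing notes. For the aligner, the counting program, the annotation and the strand setting: not given in the sources used here. Libraries were made with TruSeq RNA v2, per the labels' protocols. The 10 genes, the other lists and the alternatives were chosen with earlier results of these data known.

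Genes with at least 1 TPM in at least 4 embryos (13596) were tested with limma 3.58.1 (R 4.3.3) on log2(TPM + 1), with a trend, two-sided, genotype as the only term, and Benjamini-Hochberg adjustment over all of them. Fold changes on that scale are nearer 0 than ratios of TPM for low genes. The fit was tested on simulated data.

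Whole reads were recovered from the steps between TPM values with merged exon lengths of GENCODE M21. Of 22992 genes with a value and a length, 22464 (97.7%) gave whole numbers within 0.02 reads in all 8 libraries, Ier2 not among them. Depth is therefore known only as 57.73 to 59.13 M (mega) recovered reads per library. Intervals from reads cover counting error only.

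The genes named are the 10, the 6 other immediate early genes and up to 3 of each pathway list with the smallest p, and the 5 most alike in pattern, leaving out unnamed loci. A gene that the rule names is not reported here. Fosb and Hspa1a were too low for the filter and were described without a test, and cell type markers are given as counts and sums. Hspa1b was named beside Hspa1a, outside that rule. Cyr61, Ctgf, Mkl1 and Mkl2 of the lists were matched under their present symbols. Alternatives were another pseudocount, no filter, median-ratio scaling, no trend, array weights, the replicate number as a block and leaving out each embryo, and, added later, no mutants 3 and 4, the yolk sac endoderm score as a covariate, and voom on recovered reads.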

Additional observations from a re-analysis of the deposited data

Results flagged for a closer look

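Klf6 in mutant 1, at 54.2 TPM, lay apart from mutants 2 to 4 (31.4 to 34.6 TPM), with a gap that made up 0.862 of the range of the group. Egr1 in mutant 4, at 2.72 TPM, lay apart from the other mutants (2.17 to 2.24 TPM) with a gap of 0.863 of the range. Mapk14 in mutant 4, at 105 TPM, did so with a gap of 0.841 of the range. Each exceeds Dixon's limit for 4 samples. Chance passes it in about 1 of 20 groups, which is 3.9 of the 78 groups looked at, and 3 were found.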

How the results depend on the processing

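None of the 9 tested genes passed an adjusted p under 0.05 in any of the 17 alternatives (16 for Ier2), nor did any of the 27 other immediate early genes. Klf4 (log2 fold change 0.21 to 0.53), Atf3 (0.20 to 0.33), Egr1 (0.14 to 0.29), Fos (0.014 to 0.59), Klf6 (0.00095 to 0.54) and Dusp1 (-0.08 to -0.01) kept their sign in all of them. The sign of Jun turned without WT 3 (-0.01156) and without mutant 3 (-0.01102), that of Ier2 without WT 1 (0.00124; single embryos left out gave -0.012 to 0.075 for Jun and -0.082 to 0.00124 for Ier2), and that of Junb with the covariate for yolk sac (-0.023); the cause was not tested. The median over the genes was 0.27 with a pseudocount of 0.1 TPM and 0.30 with voom on recovered reads (8 genes, without Ier2). Both lack the pull of TPM + 1 on low genes. With the covariate for yolk sac the median over the 9 genes was 0.0136, against -0.11 over all tested genes. Leaving out single embryos gave medians from 0.14 to 0.23, 6 to 8 genes with a higher mean, and 0 to 1 genes called over the whole table, the 1 without mutant 2. Without mutants 3 and 4 limma called 3 genes of the whole table. At an unadjusted p under 0.05, 754 genes were higher and 1088 lower, and with median-ratio scaling 1195 higher and 964 lower. The sum of 1842 was 3511 with array weights, and ranged from 1158 (without WT 1) and 1213 (without WT 2) to 3094 (without mutant 2) over single embryos left out. With median-ratio scaling Klf4, Atf3, Klf6 and Fos were under that p, as were 15.9% of all genes. A higher mean in mutants was then seen in 47.9% of all genes, against 37.7% in the main fit. The labels do not say that the replicate numbers pair embryos. Same-numbered embryos correlated at -0.06, 0.04, -0.19 and -0.25 after centring, which is a description and cannot settle pairing. With the replicate block 0 genes were called in the table, 0 of the 9 and 0 of the other immediate early genes, 7 of 9 had a higher mean and their median was 0.20. Fosb, at 2 to 17 reads, and Fos, at 37 to 90, are the genes that depth limits most.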
